A study of Saccharomyces cerevisiae with 6 samples.

Results

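The subject here is the wild-type budding yeast culture of the study and the level of each of its genes during rapid growth. Of the 6 arrays of the series, the 3 labelled wild type were used, and the 3 arrays of the H2B 3-32 histone mutant entered no value. Controls and probe sets with several genes or no gene were left out, each gene was represented by its brightest probe set, and 5656 genes were ranked by their mean signal over the 3 arrays. The ranking used no difference between samples. Some of the genes named below were chosen because they varied most between the 3 arrays, and others after their values were seen. The wild-type group and the lists of genes were chosen with earlier results of these data known. Everything below is a description of 1 group of arrays, with no test.

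The wild-type cells were Saccharomyces cerevisiae grown in YPD, a rich medium of yeast extract, peptone and glucose, and collected in mid-log phase at an optical density at 600 nm between 0.5 and 0.7. RNA was taken from whole cells with hot acid phenol, and about 20 µg of it was turned into biotin-labelled cRNA for single-colour oligonucleotide arrays. The strain background, the mating type and the way the histone genes are carried in the wild type remain unstated in the sources used here. The label of array 3 ties it to further H2B mutants as well, while arrays 1 and 2 are named for this mutant alone. No label says that the arrays came from separate cultures, so the spread between them may be technical.

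On plentiful glucose, budding yeast ferments even when oxygen is present: sugar passes through glycolysis to pyruvate, pyruvate decarboxylase removes carbon dioxide, and alcohol dehydrogenase forms ethanol. Genes for respiration of other carbon sources, for gluconeogenesis and for other sugars are held down by glucose repression. Fast growth also calls for a steady supply of ribosomes, and ribosomal protein genes are transcribed at high rates in this state. Genes for meiosis and spore formation are reserved for starved diploid cells.

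The levels are signals in the authors' linear units, and a signal depends on the probes of a gene as well as on its RNA. Among the 315 genes with more than 1 probe set, the brightest stood over the dimmest by a median of 3.92-fold, and by over 4-fold in 155 genes (2 added to each signal). A rank therefore orders signals and not molecules per cell, and neighbours in the order are not told apart. In bulk RNA of this kind, fewer cells that express a gene and less RNA per cell cannot be told apart either. The names of some probe sets carry an added suffix, and some kinds of suffix stand for sequence shared with other genes. The 284 genes they represent, 5.02% of those ranked, are called marked below, since their signal may include that of relatives.

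Array 3 stood apart from the other 2 before any gene was considered. The median signal was 51.8 on array 1, 53.2 on array 2 and 68.3 on array 3. The brightest gene reached 6018 on array 1, 7572 on array 2 and only 3166 on array 3. The scale of array 3 was thus compressed, brighter in the middle and dimmer at the top. Its hybridisation controls, spiked transcripts that are not from yeast, averaged 203, against 682 on array 1 and 807 on array 2. The gap was smaller for 15 poly(A) control probe sets, which averaged 942 on array 3, 1245 on array 1 and 1335 on array 2. The order of genes was much closer than the scale. Across genes, which are not independent replicates, log2 signals correlated at r = 0.99 between arrays 1 and 2, at 0.97 between arrays 1 and 3 and at 0.96 between arrays 2 and 3 (5656 genes each).

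**Figure D1:**
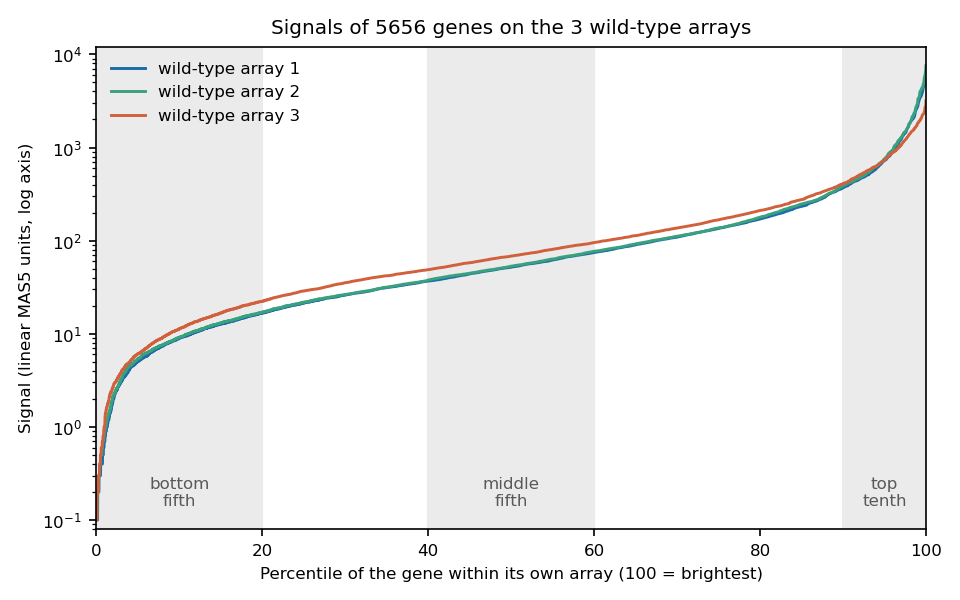
Signals of the 5656 genes on each of the 3 wild-type arrays, sorted within the array. The horizontal axis is the percentile of a gene within its own array, the vertical axis its signal on a log axis in linear MAS5 units, and grey bands mark the bottom 20%, middle 20% and top 10%. Array 3 runs above the other arrays through the middle and below them among the brightest genes.

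Signal was concentrated in few genes. The 100 brightest held 28.0% of the summed mean signal, and the share was 31.1% on array 1, 32.9% on array 2 and 19.6% on array 3 (27.9% ± 7.2 over arrays, SD, n = 3). Without array 3 the share was 32.0%. The top 10% by percentile, 566 genes at or above a mean signal of 384, held 61.8%, and the genes below the median held 6.98%. The 319 brightest genes held 50% of it. The median gene had a mean signal of 58.7, and the genes at the 20th and 80th percentiles had 19.5 and 185. The range ran from 0.167 to 5433.

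How many genes kept their band on all arrays depended on the band, and a middle band has 2 edges to cross where an end band has 1. Of the 566 genes in the top 10% by mean signal, 488 (86.2%) were in the top 10% on every array. Of the 1130 genes in the bottom 20%, 924 (81.8%) were in the bottom 20% on every array. Of the 1131 genes in the middle 20%, between the 40th and 60th percentiles, 585 (51.7%) stayed there on every array. The median coefficient of variation over the 3 arrays was highest in the lowest 10% of genes, at 34.6%, 20.0% and 19.2% in the 10% of genes on either side of the median, and lowest in the highest 10%, at 14.6%. A background level was set by 4 control probe sets for mouse transcripts, which read 0.5 to 5.4 over the arrays. Another 9 control probe sets, for the opposite strand, read 0.4 to 33.1 with a median of 2.4. Background is therefore not a single level, and the counts that follow hold for the mouse controls alone. Every array's highest mouse control was exceeded by 5353 genes (94.6%), and 49 genes (0.866%) were at or below it on all 3.

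The top of the range belonged to fermentation, translation and the cell wall. Its first 25 genes were 8 glycolytic or fermentative enzymes, 11 ribosomal proteins, the translation factors HYP2 and YEF3, the wall protein CCW12, the chaperone SSA1, the ribosome-bound protein ASC1, and the open reading frame YDR524C-B. ADH1, the alcohol dehydrogenase that makes ethanol, had signals of 6018, 7572 and 2708 on arrays 1, 2 and 3, the highest mean of all (5433 ± 2484, SD, n = 3). CCW12, a mannoprotein of the outer cell wall, had 5925, 7410 and 2888. RPS21B, a protein of the small ribosomal subunit with a marked probe set, had 5171, 6596 and 2731. All 3 genes were brightest on array 2 and dimmest on array 3. RPS22A, another small-subunit protein, had 5023, 6160 and 3166 and was the brightest gene on array 3. HYP2, the translation factor eIF5A, had 5673, 5366 and 2737. YEF3, the fungal elongation factor that acts beside the elongation factors all eukaryotes share, had 4566, 5657 and 2242. YDR524C-B, which has a systematic name only and a marked probe set, had 4961, 6504 and 2706.

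The order among these 25 genes was loose. Of the 300 pairs they form, 178 stood in the same order on all 3 arrays, and of the 24 pairs of neighbours only 2 did. The membership was firmer: arrays 1 and 2 shared 89 of their 100 brightest genes, arrays 1 and 3 shared 85, and arrays 2 and 3 shared 87. Of the 100 brightest genes by mean, 54 encoded cytosolic ribosomal proteins and 10 glycolytic or fermentative enzymes, and 90 were in at least 1 of the 50 gene lists used. The other 10 were picked out after their values were seen. They included TMA19, a translation-associated protein (rank 40), and PMP2, a small proteolipid that regulates the plasma membrane proton pump (45). TSA1, the main cytosolic peroxiredoxin (79), YHB1, a nitric oxide-consuming flavohaemoglobin (93), and PSA1, which makes GDP-mannose for the cell wall (96), were others. The probe sets of PMP2 and YHB1 were marked.

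Glycolysis was followed step by step. Of its 23 ranked genes, 15 were in the top 10%, where 566 of all 5656 genes were, and 10 were among the 100 brightest. The first steps had no gene among the 100 brightest, though gaps of this size also occur between probe sets of 1 gene. HXK2, the main hexokinase on glucose, had 1075, 1310 and 1147. PGI1, phosphoglucose isomerase, had 1658, 1884 and 1506. PFK1 and PFK2 encode the alpha and beta subunits of phosphofructokinase, the committing step. PFK1 had 1058, 1219 and 950, and PFK2 had 1080, 1261 and 1079, and this small difference does not order them.

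From aldolase on, each step had a gene among the 100 brightest. FBA1, aldolase, had 5615, 6054 and 2422. TPI1, triosephosphate isomerase, had 4069, 4327 and 2419. TDH3, the chief glyceraldehyde-3-phosphate dehydrogenase, with a marked probe set, had 5055, 5889 and 2479. These genes and those that follow kept to a narrow band on each array. PGK1, phosphoglycerate kinase, had 4813, 4790 and 2306. GPM1, phosphoglycerate mutase, had 4359, 5332 and 2203. ENO2, enolase, with a marked probe set, had 4647, 4187 and 2235. Pyruvate kinase and decarboxylase completed the path to ADH1. CDC19, pyruvate kinase, had 5021, 6547 and 2289. PDC1, the main pyruvate decarboxylase, had 3460, 4036 and 2023.

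The remaining members were isoenzymes at widely different signals. ENO1, the second enolase gene, with a marked probe set, had 2769, 2591 and 1638 and was also among the 100 brightest genes. GLK1, glucokinase, had 84.9, 88.6 and 213.5, and HXK1, the hexokinase that glucose represses, had 26.5, 30.7 and 177.9. Both were higher on array 3 than on the other arrays. The list's median gene was lower on array 3 by 0.26 on the log2 scale. The median of all genes was higher on it by 0.26, and TDH1 and PYK2 were also brightest there. ADH3, the mitochondrial alcohol dehydrogenase, had 670, 735 and 641. PYK2, a second pyruvate kinase that is used when glycolytic flux is low, had 15.6, 18.0 and 28.8. PDC6, a minor pyruvate decarboxylase, had 8.5, 8.3 and 7.1, in the lowest 10% of all genes.

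**Figure D2:**
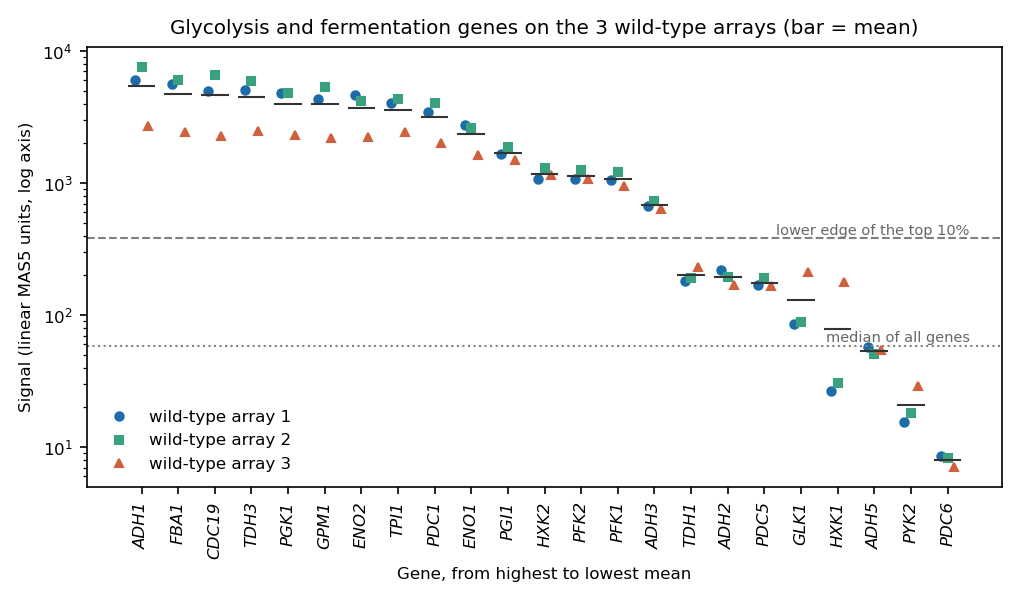
Signals of the 23 ranked glycolysis and fermentation genes on the 3 wild-type arrays, on a log axis in linear MAS5 units, with a bar at each gene's mean. A dashed line marks the lower edge of the top 10% (384) and a dotted line the median of all genes (58.7). The first 15 genes lie above the dashed line on every array, and HXK1 and GLK1 are higher on array 3 than on the other arrays.

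Cytosolic ribosomal proteins were the brightest group. Of the 80 that could be ranked, 79 were in the top 10%, and together they held 18.0% of the summed signal with a median mean signal of 2260. The median percentile was 98.9 for the 47 proteins of the large subunit and 98.7 for the 33 of the small subunit. Their signals were also alike: the interquartile range on the log2 scale was 1.04 for the large and 1.11 for the small subunit, against 2.59 for all genes. RPL21B, of the large subunit, had 4480, 5199 and 2694. RPL5, which carries the 5S ribosomal RNA into the large subunit, had 4521, 4775 and 2334. RPL15B, the second gene for a large-subunit protein, was the only one below the top 10%, with 114.2, 125.5 and 207.0. Other second copies sat low within the group without leaving the top 10%: RPS26B had 694, 706 and 652, and RPL22B had 441, 486 and 513.

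Most yeast ribosomal protein genes come in near-identical pairs, and signal of one may include the other. The probe sets of 30 of the 80 genes were marked. Their median mean signal was 2073, and that of the 50 genes with unmarked probe sets was 2525, with 49 of these 50 in the top 10%. When unmarked probe sets alone were ranked, 52 of these genes remained and 50 of them were in the top 10%. The list holds genes of both subunits that could not be ranked because their probe set is shared by several genes or because they are not analysed here.

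The rest of the translation apparatus followed at graded levels. The 33 translation factors had a median percentile of 92.2, with 20 in the top 10%. EFB1, the exchange factor of elongation factor 1, had 3299, 4154 and 1877, while TIF4632, the second gene for the scaffold eIF4G, had 37.3, 34.0 and 54.9. The 21 aminoacyl-tRNA synthetases, which load amino acids onto tRNA, had a median percentile of 93.1 with 18 in the top 10%. FRS1, a subunit of the phenylalanine enzyme, was the highest of them with 1671, 1733 and 1453, and CRS1, the cysteine enzyme, the lowest with 149.0, 152.0 and 141.3. Every gene of this list was above the median of all genes.

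Genes that build ribosomes were lower than the ribosomal proteins they assemble. Of 100 ribosome biogenesis genes, 61 were in the top 20% of all genes and 22 in the top 10%, and the median percentile was 82.6. NOP58, a core protein of methylating small nucleolar particles with a marked probe set, had 2937, 3006 and 1643. NSR1, the yeast nucleolin, had 1280, 1132 and 841. The dimmest members were UTP11, of the small-subunit processome, with 38.1, 45.8 and 51.6, and KRE33, an RNA acetyltransferase, with 49.9, 42.2 and 66.5. None of the 100 was in the bottom 20%. The 19 subunits of RNA polymerases I and III, which transcribe ribosomal RNA, tRNA and 5S RNA, had a median percentile of 82.3, led by RPC19 with 804, 877 and 711.

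Biosynthetic pathways filled much of what remained at the top. The 24 ergosterol genes, which make the sterol of fungal membranes, had a median percentile of 92.8, with 22 in the top 20%. ERG25, a sterol methyl oxidase, had 1824, 2174 and 1415, and the dimmest, ERG12, mevalonate kinase with a marked probe set, had 127.1, 97.7 and 137.7. The 15 fatty acid genes had a median percentile of 89.7. ACC1, acetyl-CoA carboxylase, had 2061, 2354 and 1094, and OLE1, the only fatty acid desaturase of this yeast, had 1643, 1494 and 928. The acyl-CoA synthetases FAA2 (mean 13.7) and FAA3 (35.8) were the dimmest of the list.

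Purine and pyrimidine genes had a median percentile of 90.4 (34 genes, 17 in the top 10%). IMD4, an inosine monophosphate dehydrogenase of guanine nucleotide synthesis, had 1504, 1384 and 1155, and GUA1, GMP synthase, had 1281, 1422 and 899. At the other end stood URA10, a minor orotate phosphoribosyltransferase, with 7.2, 4.5 and 7.7, and RNR3, a ribonucleotide reductase subunit induced by DNA damage, with a marked probe set and 12.2, 6.5 and 16.6. The 68 amino acid synthesis genes spread more widely, with a median percentile of 85.4, 29 in the top 10% and 1 in the bottom 20%. ARO2, chorismate synthase, had 1352, 1487 and 1270. ILV5, of branched-chain synthesis, had 1431, 1368 and 1065. ARG3, ornithine carbamoyltransferase of arginine synthesis, was the single gene in the bottom 20%, with 11, 12.5 and 24.1.

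Sulfur metabolism was spread over the range. The 25 genes of sulfate assimilation and methionine had a median percentile of 52.8, with 7 in the top 10% and 4 in the bottom 20%. HOM6, homoserine dehydrogenase, had 1271, 1410 and 1139, and CYS3, cystathionine gamma-lyase, had 1160, 1321 and 1068. The sulfate permeases were the dimmest: SUL1 had 4.3, 7.0 and 6.4, and SUL2 had 7.4, 12.4 and 21.9.

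At the cell surface, 21 of the 43 wall and surface genes were in the top 10% and 5 in the bottom 20%. CWP2, a wall mannoprotein, had 3602, 3919 and 2034, and GAS1, which remodels glucan, had 2738, 3445 and 1708. FLO1, a flocculin with a marked probe set, had 0.4, 1.0 and 0.5, and DAN1, a mannoprotein of anaerobic cells, had 1.8, 2.7 and 8.9. Among 43 pumps and permeases, PHO84, the high-affinity phosphate transporter, was the brightest with 3099, 3491 and 1715. PMA1, the proton pump that energises the plasma membrane, had 2879, 2777 and 1595, and HXT3, a low-affinity glucose transporter, had 1592, 1611 and 1594. HXT10 and HXT14, of the same hexose transporter family, had means of 3.17 and 0.233. The list reached from the brightest 100 genes to the 10 dimmest.

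Chaperones and the proteasome differed in spread. The 34 cytosolic chaperones had a median percentile of 90.2. SSA1 and SSA2, constitutive Hsp70 proteins, had 3961, 4450 and 2366 and 3813, 4239 and 2465, the first with a marked probe set. HSP26, a small heat shock protein, had 14.8, 15.6 and 22.9. The 36 proteasome genes had a median percentile of 84.8, with 25 in the top 20%. PRE6, a core alpha subunit, had 482, 630 and 576, and the dimmest members were the assembly factors RPN14 (mean 26.7) and UMP1 (73.9). The 16 genes of the vacuolar ATPase, the proton pump that acidifies the vacuole, showed the same feature. VMA3, a subunit of the membrane ring, had 2551, 2724 and 1725, and the dimmest were VMA21 (mean 126) and VMA22 (58.3), which assemble the pump and are not part of it.

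**Figure D3:**
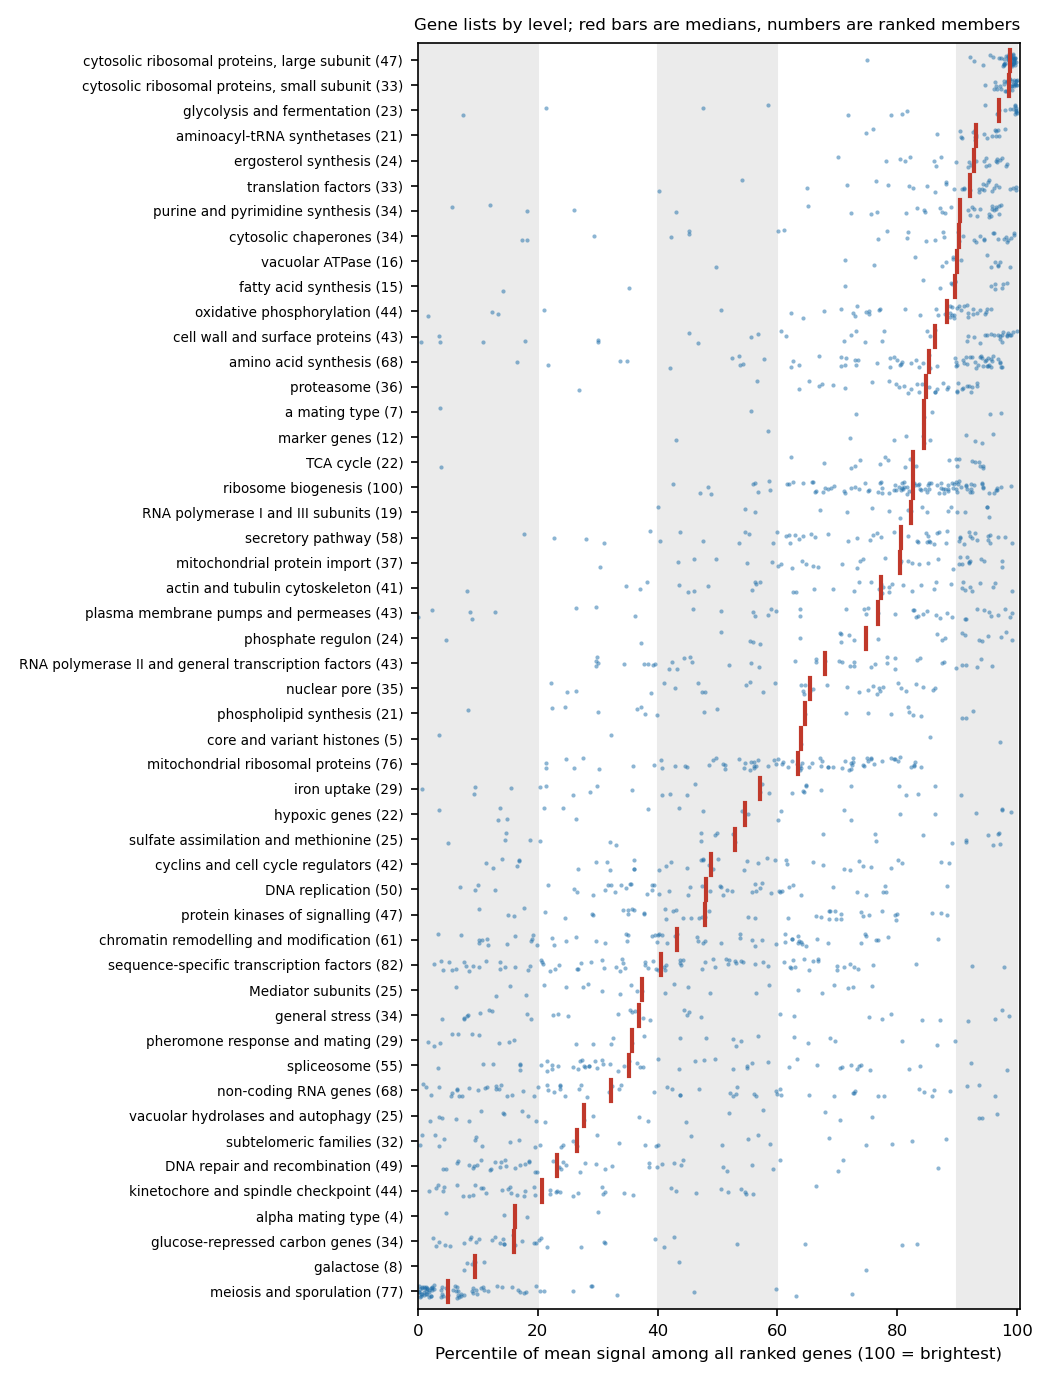
Percentile of mean signal for the ranked members of 50 gene lists, with 1 point a gene, a red bar at the list's median and the number of ranked members after its name. Grey bands mark the bottom 20%, middle 20% and top 10%. Cytosolic ribosomal proteins lie at the top, mitochondrial ribosomal proteins above the middle, and meiosis and sporulation genes at the bottom.

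Respiratory genes were not at the bottom. The 44 genes of oxidative phosphorylation encoded in the nucleus had a median percentile of 88.3, with 15 in the top 10% and 3 in the bottom 20%. NDE1, the external NADH dehydrogenase of mitochondria, had 785, 826 and 950. CYC1, the aerobic cytochrome c, had 682, 710 and 788. ATP1, the alpha subunit of ATP synthase, had 722, 677 and 719, and ATP2, its beta subunit, had 705, 782 and 580. Succinate dehydrogenase was lower, with means of 198 for SDH4, 162 for SDH3, 136 for SDH1 and 111 for SDH2. NDE2, the second external NADH dehydrogenase, had 1.4, 1.0 and 4.3, near the bottom of all genes.

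The 22 genes of the TCA cycle had a median percentile of 82.7, ranging over arrays from 79.2 on array 2 to 86.6 on array 3. PDA1, of the pyruvate dehydrogenase complex, had 697, 659 and 616, and FUM1, fumarase, had 689, 675 and 601. CIT3, a minor mitochondrial citrate synthase, was the dimmest with 3.7, 4.8 and 5.9. Mitochondrial protein import, a list of 37 genes, had a median percentile of 80.5, led by HSP60, the mitochondrial chaperonin, with 1406, 1463 and 1306.

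The lists with medians in the middle 20% included cell cycle, replication, chromatin, transcription factor and signalling kinase genes. Most of the band, 75.8%, was in no list. The 10 genes nearest the median rank came from unrelated processes. ARP6, a subunit of the chromatin remodeller that exchanges the H2A variant, had 56.2, 60.6 and 59.4. RAM1, a subunit of the farnesyltransferase, had 62.8, 42.3 and 71.4. EPT1, a phospholipid enzyme, had 53.6, 40.6 and 81.8. STR2, of sulfur amino acid metabolism, had 56.6, 61.4 and 58.0. SEG1, an eisosome protein, MOB1, of the mitotic exit network, SSF2, of ribosome assembly, and BRE4, MNC1 and YPR127W made up the rest, with means from 58.5 to 58.9. The probe sets of MOB1 and SSF2 were marked. At least 1 list held 24.2% of the middle 20%, 68.4% of the top 10% and 31.6% of all genes.

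Mitochondrial ribosomal proteins formed a compact group above the middle. All 76 were ranked, none was in the top 10% or the bottom 20%, 7 were in the top 20% and 24 in the middle 20%. Their median percentile was 63.5 and their interquartile range 1.04 on the log2 scale, at a median signal of 94.3. MRPL37, of the large subunit, had 215.4, 227.7 and 210.7. MRPS12, of the small subunit, had 186.7, 211.2 and 253.7. The dimmest were MRP21, with 21.1, 21.1 and 20.1, and RSM22, with 16.4, 15.9 and 29.9, both of the small subunit.

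Cyclins and cell cycle regulators had a median percentile of 48.9, with 15 of 42 in the middle 20%. In a culture that is not synchronised, each such gene is averaged over cells in all phases. The G1 cyclins differed: CLN3, the upstream one, had 293, 393 and 335, CLN2 had 121.3, 112.0 and 160.8, and CLN1 had 59.2, 78.7 and 85.0. The S-phase cyclins CLB5 and CLB6 had means of 87.3 and 11.3. The mitotic cyclins CLB1 to CLB4 had means of 43.5 for CLB1, 57.1 for CLB2, 110 for CLB3 and 36.7 for CLB4. CDC28, the kinase that all of them activate, had 107.3, 119.2 and 148.8.

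The 50 replication genes had a median percentile of 48.1 with 17 in the middle 20%, and 1 in the top 20%. That gene was RFA3, the small subunit of the single-strand binding protein RPA, with 296, 383 and 331, and RFA2 and RFA1, the other subunits, had means of 169 and 168. POL32, of DNA polymerase delta, had 10.4, 5.4 and 6.9. Chromatin genes (61, median percentile 43.3) and kinases of signalling (47, 48.0) also had medians in the middle 20%, and the 35 nuclear pore and transport genes had a higher median of 65.4. SPT5, an elongation factor with a marked probe set, led the chromatin genes with 271, 341 and 242, and the deacetylases HOS1 (mean 7.73) and HOS2 (4.27) ended them. HOG1, the kinase of the osmotic response, led the signalling kinases with 279, 372 and 355.

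Sequence-specific transcription factors spread over the whole range, with a median percentile of 40.6 over 82 genes, 22 in the middle 20%, 18 in the bottom 20% and 2 in the top 10%. GCN4, the activator of amino acid genes whose synthesis is controlled at translation, was the brightest with 1610, 1785 and 1324. HAP1, a haem-dependent activator with a marked probe set, had 578, 411 and 512. CAT8, the activator of gluconeogenic genes, had 1.6, 4.3 and 4.6. The subunits of RNA polymerase II and its general factors were higher (43 genes, median percentile 67.9), and the Mediator subunits were lower (25 genes, 37.4). RPB8, a subunit shared by all 3 nuclear RNA polymerases, had 961, 1070 and 616, and SIN4, a Mediator tail subunit, had 152.7, 167.8 and 139.1.

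Of the histone genes, 5 could be ranked, since the others share probe sets or are not analysed here. HTB1, for histone H2B, had 1372, 1138 and 1191 (1234 ± 122, SD, n = 3), and HTB2, the second H2B gene, had 3.6, 5.4 and 4.4 (4.47 ± 0.902). The highest mouse control read 2.9, 5.4 and 1.0 on arrays 1, 2 and 3, so that HTB2 was above it on arrays 1 and 3 and equal to it on array 2. HTZ1, the H2A variant, had 262.1, 289.8 and 218.9, HHO1, the linker histone, had 66.9, 76.4 and 144.0, and CSE4, the centromeric H3 variant, had 26.0, 35.1 and 36.5. HTB1 was thus the one ranked histone gene in the top 10%, and HTB2 the one in the bottom 20%.

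The 55 spliceosome genes had a median percentile of 35.2. SNU13, a protein that spliceosomes share with small nucleolar particles, had 1926, 1952 and 1590, and PRP43, a helicase that also acts in ribosome assembly, had 499, 521 and 462. These were the only 2 of the list in the top 10%. PRP18, of the catalytic steps, had 7.8, 11.4 and 13.4.

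Meiosis and sporulation genes had the lowest median of all lists, though they were only 5.93% of the bottom 20%, and 74.4% of that band was in no list. Of 77 meiosis and sporulation genes, 67 were in the bottom 20%, where 1130 of all 5656 genes were, and the median percentile was 5.0, at 5.36, 5.31 and 5.18 by array. REC114, needed for meiotic double-strand breaks, had 0.3, 0.4 and 0.2, and CDA1, a chitin deacetylase of the spore wall, had 0.3 on each array. SPO11, the enzyme that makes these breaks, had 0.2, 0.4 and 2.3. IME1, the master activator of meiotic entry, was higher than these with 13.6, 16.6 and 19.0, still within the bottom 20%. Only 3 members were above the median of all genes: SPR6 (mean 133), SPO12 (92.7), which also acts in mitotic exit, and SPO14 (82.0), a phospholipase D.

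Genes of other carbon sources were next. Of 34 glucose-repressed genes, 21 were in the bottom 20%, and the median percentile was 16.1. SFC1, a mitochondrial succinate-fumarate carrier, had 5.0, 3.3 and 3.1, and POX1, of fatty acid breakdown, had 0.1, 5.3 and 4.2. ALD4, a mitochondrial aldehyde dehydrogenase, was higher with 70.4, 57.0 and 168.6, and so was DLD1, D-lactate dehydrogenase, with 161.1, 203.1 and 307.3. Of the 8 galactose genes, 6 were in the bottom 20%. GAL7, a transferase of galactose use, had 5.5, 11.2 and 9.1, GAL2, the permease, had 10.8, 13.1 and 9.5, and GAL4, the activator, had 5.5, 7.6 and 11.4. GAL80, the repressor that binds GAL4, was the one gene of the list in the upper part of the range, with 113.8, 115.0 and 211.8.

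Kinetochore and DNA repair genes were also low. The 44 kinetochore and spindle checkpoint genes had a median percentile of 20.8, with 22 in the bottom 20%. BUB3 and MAD2, of the checkpoint, had 67.5, 79.7 and 67.9 and 65.1, 70.7 and 71.5, while SPC24, a subunit of the complex that binds microtubules, had 3.8, 1.2 and 2.2. The 49 repair and recombination genes had a median percentile of 23.2, with 23 in the bottom 20%. RAD23, of nucleotide excision repair, had 267, 312 and 276, RAD52, of homologous recombination, had 107.7, 114.8 and 139.8, and MUS81, a structure-specific nuclease, had 4.3, 4.6 and 7.9. The middle 20% held 9 of the kinetochore and 8 of the repair genes. Autophagy and vacuolar enzymes (25 genes, median percentile 27.7) were split between vacuolar proteases, such as PEP4 with 575, 542 and 825, and autophagy factors, such as ATG14 with 5.3, 3.2 and 4.8 and ATG16 with 3.1, 4.6 and 0.6.

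General stress genes had a median percentile of 36.9 and reached both ends. HOR7, a small membrane protein named for its response to hyperosmotic stress, had 2202, 2371 and 1874, and SOD1, copper-zinc superoxide dismutase, had 1398, 1499 and 1162. SIP18, induced by osmotic stress, had 3.8, 7.7 and 3.2. Iron uptake genes had a median percentile of 57.1 by mean signal, but 45.0 without array 3. FET3, the copper oxidase of high-affinity uptake, had 295, 379 and 564, and SIT1, a siderophore transporter, had 33.0, 39.1 and 165.0. Both were highest on array 3.

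The 10 dimmest genes had means from 0.167 to 0.333, below the lowest reading of the mouse controls (0.5). Beside REC114 and CDA1 they were SPS22, of spore wall formation, HXT14, BI3, an intron-encoded maturase of the mitochondrial genome, ECM12, and the open reading frames YAL067W-A, YCL001W-A, YOL131W and YFR057W. The probe set of YAL067W-A was marked. Genes with a systematic name only made up 9.23% of all ranked genes, 3.71% of the top 10% and 17.4% of the bottom 20%. Of 19 ranked genes of the mitochondrial genome, 16 were in the bottom 20% and 2 in the top 10%. The 2 were OLI1, a subunit of the ATP synthase ring, with 2052, 1794 and 1270, and COX1, of cytochrome oxidase, with 963, 937 and 872. How far RNAs of this genome were labelled was not tested.

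The labelled growth state was set against marker genes. All 8 markers of fermentative growth on glucose were above the median gene, with means from 841 to 5433, and their summed signal was 29405, 33466 and 15862 on arrays 1, 2 and 3. Of 11 markers of growth past the diauxic shift, when glucose has run out, 2 were above the median and 5 in the bottom 20%, and their summed signal was 624, 577 and 632. The 2 were HSP12, a small membrane-associated stress protein, with 250.3, 210.9 and 239.4, and ADH2, the alcohol dehydrogenase that consumes ethanol, with 220.0, 192.7 and 168.6. Invertase SUC2, with a marked probe set, had 33.1, 33.4 and 56.5, and catalase CTT1 had 9.5, 8.1 and 8.1. All 7 markers of sporulating diploids were in the bottom 20%, with means from 0.967 to 16.4. No marker set went against the labelled growth state.

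Mating type was read from the pheromone and receptor genes. Of 7 a-type markers, 6 were above the median gene, and the whole set summed to 3042, 3221 and 2293. The a-factor genes MFA2 and MFA1 had 1428, 1560 and 1002 and 901, 961 and 567, the second with a marked probe set. STE2, the alpha-factor receptor of a cells, had 269.5, 259.7 and 258.2, and BAR1, the protease that degrades alpha-factor, had 234.1, 223.2 and 257.6. Of 4 alpha-type markers none was above the median, and they summed to 58.2, 71.0 and 72.1. STE3, the a-factor receptor of alpha cells, had 5.4, 6.5 and 5.0. The 7th a-type marker, ASG7, which is induced by pheromone, had 1.6, 3.7 and 8.7. Every array showed the a-type pattern.

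**Figure D4:**
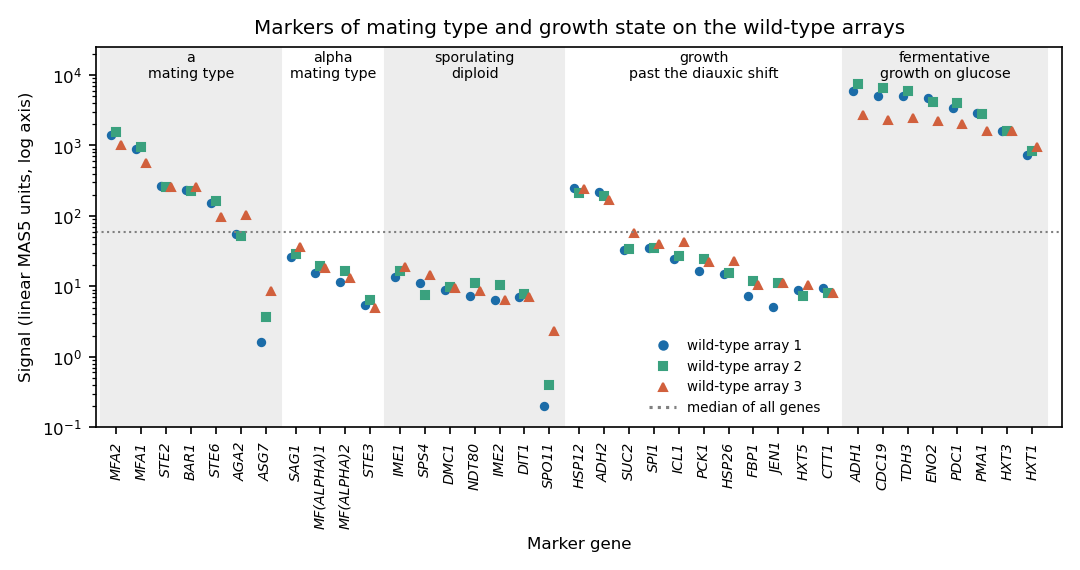
Signals of marker genes of mating type and growth state on the 3 wild-type arrays, on a log axis in linear MAS5 units, with a dotted line at the median of all genes (58.7). The fermentative markers lie above the line, the sporulation and alpha-type markers lie below it, and the a-type markers other than ASG7 have means above it.

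Of 32 pairs of genes for the same or a paired activity, 30 had both genes ranked, each by its own probe set. Since probe sets differ in brightness, only large gaps in percentile are read as a difference. ADH1 was at percentile 100 and ADH2 at 80.8. TDH3 was at 99.8 and TDH1 at 81.6. PDC1 was at 99.3, PDC5 at 79.0 and PDC6 at 7.51. ADH3 was between ADH1 and ADH2, at percentile 94.6, and TDH2 was not ranked.

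In several pairs the dimmer gene is known to serve low oxygen. HYP2 was at percentile 99.9 and ANB1, its anaerobic counterpart, at 54.1 (57.6, 81.0 and 64.3). CYC1 was at 95 and CYC7, the cytochrome c of low oxygen, at 13.3 (11.8, 11.1 and 16.1). COX5A was at 88.9 and COX5B, the hypoxic form of this cytochrome oxidase subunit, at 21 (13.4, 20.6 and 27.2). The brighter gene of each pair is the aerobic one, and it was the brighter on every array.

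The dimmer partner was a stress or damage gene in others. HSC82, the constitutive Hsp90, had 1987, 1865 and 1421, and HSP82, the inducible one with a marked probe set, had 131.2, 114.5 and 367.7. SSA3 and SSA4, inducible Hsp70 genes, had means of 49.8 and 82.7, below SSA2 (3506). RNR1, the main large subunit of ribonucleotide reductase, had 265.2, 273.9 and 424.7, far above the RNR3 signals given above. FKS1, the glucan synthase of growing cells, had 1290, 1574 and 1323, and GSC2, induced by wall stress and in sporulation, had 45.5, 45.1 and 66.2.

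A few pairs lay close together. TUB1 and TUB3, for alpha tubulin, had means of 503 ± 7.67 and 423 ± 41.2 (SD, n = 3 each). SAM1 and SAM2, which make S-adenosylmethionine, had 454 ± 27.6 and 447 ± 78.5, and their order changed between arrays. ASN1 and ASN2, asparagine synthetases, had 1141 ± 158 and 838 ± 58.2. CIT1, the mitochondrial citrate synthase, had 156.8, 159.1 and 349.7, and CIT2, the peroxisomal one, had 113.5, 83.0 and 77.5. This pair lay further apart, at percentiles 83.2 and 62.8, and its gap was widest on array 3.

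**Figure D5:**
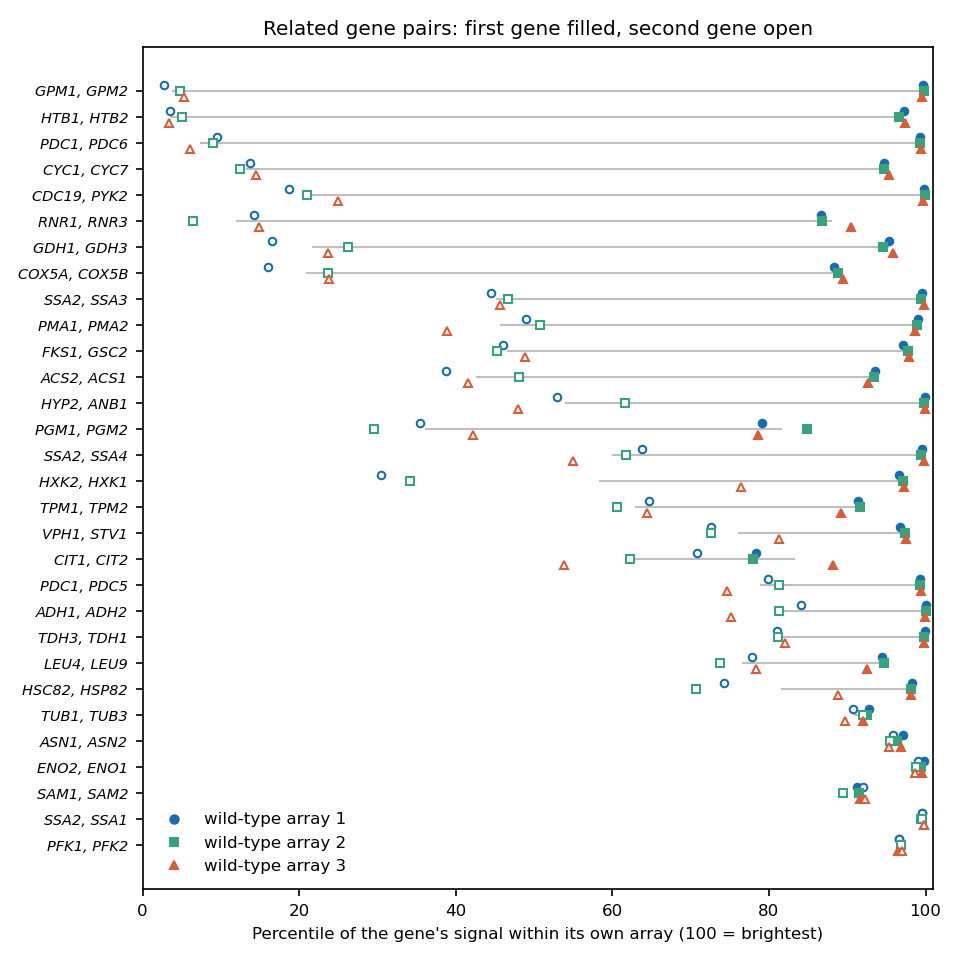
Percentile within its own array of each gene of 30 related pairs, the first gene of a pair filled and the second open, with colours and shapes for the 3 wild-type arrays and a grey line between the percentiles of the mean signals. GPM1 and GPM2 are furthest apart, PFK1 and PFK2 lie together, and HXK1 and HSP82 are higher on array 3 than on the other arrays.

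Among genes above the median, 8 of the 10 that varied most between the arrays were highest on array 3 and close together on the other arrays. RDN5-1, a 5S ribosomal RNA gene with a marked probe set, had 236.8, 272.1 and 1276.2. NCE103, carbonic anhydrase, had 108.2, 84.0 and 394.1. STF1, a regulator of ATP synthase, had 50.4, 50.8 and 191.1. HXK1 and SIT1, given above, and the small nucleolar RNA SNR61, the non-coding RNA gene YNCC0001C, with a marked probe set, and YIP1, of vesicle transport, had the same shape. RLM1, a transcription factor of the wall integrity pathway, was instead low on array 1 alone, with 25.3, 121.6 and 160.9, and SPA2, a polarity protein with a marked probe set, was high on array 2, with 67.8, 138.3 and 28.4.

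The lists differed unequally between array 3 and the other arrays. Relative to arrays 1 and 2, array 3 was higher by a median of 0.26 on the log2 scale over all genes. Ribosomal proteins were lower on it, by a median of -0.64 for the large and -0.62 for the small subunit, and the TCA cycle (0.56), mitochondrial ribosomal proteins (0.53), oxidative phosphorylation (0.47) and the proteasome (0.41) were higher than the median of all genes. In percentile, which removes the difference in scale, the ribosomal proteins of the small subunit differed by 0.35 and the TCA cycle by 7.26, array 3 minus arrays 1 and 2. On arrays 1 and 2 their median percentiles were 98.6 and 79.3. Ranks have less room to change near the top, so the 2 differences are not directly comparable. The largest percentile differences in either direction were 12.98 for the 5 histone genes, 8.58 for phospholipid synthesis and 7.71 for iron uptake, and -5.45 for chromatin genes. The histone value is that of HHO1, the middle gene of the list, while the list's median difference on the log2 scale was -0.02. The hybridisation controls and the compressed scale of array 3 moved with these differences, and their part in them was not tested.

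Position along the chromosome went with level at the chromosome ends. Counting genes inward from each end in the order of the R64 annotation, only 67 of the 160 outermost genes, 5 per arm, could be ranked. More than 40 places from an end, 4368 of 4722 could. The 67 outermost genes had a median percentile of 19.6, and 34 of them (50.7%) were in the bottom 20%. Of these probe sets 32.8% were marked. The 134 genes in places 6 to 10 had a median percentile of 29.9, with 38.1% in the bottom 20%, and the 4368 genes more than 40 places from an end had 51.6, with 18.9%. Bright genes near ends were of several kinds. YHR214C-B, with a marked probe set 8 places from an end, was the brightest with 1404, 1519 and 1376. ZUO1, a ribosome-bound chaperone 9 places from an end, had 1158, 1201 and 1038, and IMD2, an inosine monophosphate dehydrogenase 3 places from an end with a marked probe set, had 799, 882 and 706. Among the 32 ranked members of subtelomeric families, COS12 was the dimmest, with 0.1, 1.2 and 0.1.

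Genes for stable RNAs were also ranked, and how far RNAs without a poly(A) tail were labelled was not tested. The 57 small nucleolar RNA genes had a median percentile of 32.0, and 1 of them, SNR77, was in the top 10% with 448, 401 and 520. The 91 tRNA genes had a median percentile of 46.2. The ribosomal RNA precursor gene RDN37-1, with a marked probe set, had 1116, 1270 and 580.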

How the data were processed

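Whole-cell RNA of 3 wild-type samples was hybridised to single-colour arrays with 9335 probe sets. The authors deposited 1 linear intensity for each probe set, and MAS5 is the tool that the submitters' processing notes name. Its version, settings and detection calls remain unstated in the sources used here. Columns had 2% trimmed means of 125.1 to 125.2 and were used without further scaling.

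After leaving out 60 controls, 6504 probe sets had 1 gene in the platform's annotation, 328 had several and 2443 had none. Symbols were updated through gene identifiers to the R64 table, in which all 5656 genes were found. Each gene took the probe set of highest mean, and genes were ranked by the mean of 3 arrays, with percentile 100 for the brightest. Values are given as mean ± SD over arrays. An offset of 2 was added before log2 in comparisons between arrays. The number of arrays limits the precision. The ranking was tested on simulated data. Named genes were the 25 highest, the 10 nearest the median, the 10 lowest, the 3 brightest and 2 dimmest of each list, the paired genes, and the 10 above the median that varied most between arrays. Any other gene named was chosen after its values were seen, apart from the markers of mating type and growth state. The wild-type group and the lists were chosen with earlier results of these data known. Alternatives were averaging all probe sets of a gene, unmarked probe sets alone, a mean of log2 signals, quantile and median scaling, a filter on dim genes and leaving out each array. Python 3.11.15, pandas 2.3.3 and numpy 2.4.6 were used. No comparison with the mutant was made.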

Additional observations from a re-analysis of the deposited data

How the results depend on the processing

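Of the 6 summary results, the share of signal in the 100 brightest genes stayed within 1 SD over arrays of its value of 28.0% under all 9 alternatives (25.4% to 32.0%). That SD, 7.2, is wide because array 3 had 19.6% against 31.1% on array 1 and 32.9% on array 2. Leaving out 1 of 3 arrays can hardly move the share by 1 SD, so this limit says little about those alternatives. Of the other 5 summary results, which are counts, all stayed within 1.5 times their value, with 2 exceptions. With unmarked probe sets alone, the count of cytosolic ribosomal protein genes in the top 10% was 50 in place of 79, because only 52 such genes were left to rank. Ranking without genes below the 20th percentile left 6 meiosis and sporulation genes in the bottom 20% in place of 67, because most were removed by the filter. Leaving out each array in turn gave 79 ribosomal protein genes and 15 glycolysis genes each time, 56 to 63 ribosome biogenesis genes in the top 20%, 22 to 25 mitochondrial ribosomal protein genes in the middle 20% and 66 to 68 meiosis genes in the bottom 20%. Of 50 list medians, 49 moved by less than their SD over arrays under quantile normalization, 31 without array 3 and only 7 without genes below the 20th percentile, where the galactose list moved most, to 48.9 in place of 9.46. The 100 brightest genes shared 76 members with those of the unmarked ranking and 93 to 100 with those of each other alternative. No paired analysis was possible because only 1 group was used and no result comes from a test. Signals of dim genes are limited by background: of the 77 meiosis genes, 39 were above the highest mouse control on every array and 8 were at or below it on every array.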

Other observations

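Probe sets outside the ranking also carried signal. The 328 probe sets with several genes had a median mean signal of 128, and 146 of them (44.5%) reached the level of the top 10% of ranked genes. They include those of the paired genes TDH2, HTA1 and HTA2, which are not ranked. The 2443 probe sets that the gene table leaves without a gene had a median of 6.97, and 1845 of them (75.5%) were at or below the level of the bottom 20%. Yet 151 of them reached the level of the top 10%. The brightest of these had 4886, 5088 and 2156 on arrays 1, 2 and 3. Another had 3498, 4209 and 453.9, and a further one had 4140, 3470 and 503.7, both far lower on array 3 than on the other arrays. What these probe sets match was not analysed here.

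Some genes used as selection markers in laboratory strains were also read. MET17, of methionine synthesis, had 657, 817 and 1239, and TRP1, of tryptophan synthesis, had 501, 537 and 577. ADE2, of adenine synthesis, had 33.2, 45.0 and 59.5. URA3, of uracil synthesis, had 211.9, 225.2 and 164.7. A control probe set for URA3, left out of the ranking with the other controls, had 330.1, 353.9 and 231.5. The genotype at these genes remains unstated in the sources used here.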
